A study of Mus musculus with 8 samples.

Results

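The 8 genes described here belong to the red cell lineage: Hba-a1, Hbb-b1, Alas2, Epb42, Car1, Car2, Gata1 and Klf1. They were chosen by gene symbol from the platform annotation of an Affymetrix mouse array, and 12 of the 12422 probe sets that report genes carried one of these symbols. Of these, 9 were annotated to that gene alone and 3 to a globin gene together with other globin genes. The signal of those 3 cannot be divided among the annotated genes. The study measured total RNA of whole murine lung on 8 arrays in 4 groups of 2 (replicates a and b), with a title on septation of the alveoli, its inhibition and its protection. Mice were 3 days old when given oil or retinoic acid, a vitamin A derivative that acts through nuclear receptors, and on day 4 each of these sets was divided between saline and dexamethasone, a synthetic glucocorticoid. The group named Dex received oil and then dexamethasone, RA received retinoic acid and then saline, and RA-Dex received retinoic acid and then dexamethasone. The labels do not define the name Dil, which was taken as oil followed by saline, the only arm left. The sources used here do not give strain, doses, time of collection, removal of blood from the lungs, or whether replicates were separate animals. The p-values therefore cover array-to-array spread alone, which may be technical. Lung genes gave high signal on all 8 arrays, from 61592 to 84336 for Sftpc (surfactant protein C) and from 40353 to 52034 for Scgb1a1 (the club cell secretory protein), so the tissue label was borne out by its markers.

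Red cell precursors are driven by the transcription factors GATA1 and KLF1, which switch on the globin genes, the enzymes of heme synthesis and the proteins of the red cell membrane. Circulating red cells of newborn rodents include many reticulocytes, which have lost the nucleus but still carry messenger RNA for globin and for late-acting proteins such as ALAS2. A whole lung holds blood in its capillaries, so its RNA can include RNA of circulating red cells beside that of lung cells. In such bulk RNA, fewer cells of a type and less RNA per cell cannot be told apart.

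The array data showed abundant adult globin and Alas2 signal in every group, and signals for Gata1, Klf1, Epb42 and Car1 at or near the bottom of the measurable range. Car2, a carbonic anhydrase made in red cells and in several other cell types, was the only member whose difference passed the test in any contrast. It fell in the averaged dexamethasone effect, in which 3.57% of all tested probe sets fell. That call did not hold when single arrays were left out. The Car2 signal was lowest after both agents. Alas2 and Car2 were lower on each of the 4 arrays given retinoic acid than on each of the 4 given oil. The same held for the probe set shared by Hba-a2 and Hba-a1, and for 1.48% of all tested probe sets. No member passed the test in that contrast, where Car2 had a log2 fold change of -0.42 and an adjusted p of 0.165 by limma. The probe set annotated to Hba-a1 alone did not separate these arms. Of the 12 probe sets, 5 had a mean signal above the filter of 200.8 and were tested with limma, and 7 had not; 4 of the 8 genes had a probe set above it, Hbb-b1 through the shared probe set only. No mean lay close to that filter from above: the nearest were Klf1 at 163 below it and Alas2 at 4918 above it.

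Promoters of Hba-a1 and Alas2 are shown because these members had both a signal above the filter and a RefSeq promoter sequence at hand. The probe sets of Alas2 and of Hba-a1 alone also placed the retinoic acid arms differently. For the member Hbb-b1 no promoter sequence was at hand. The promoter of Hbb-bs, which is not a member but is annotated to the same probe set, is shown in its place. Each is given for the 200 bases before the gene's start on its own strand, 5′ to 3′, from RefSeq on GRCm38.p6, with matches to the searched motifs in capitals. Hba-a1 lies at chr11:32283472-32283671 on the plus strand, Hbb-bs, one of the 4 genes of the shared beta-globin probe set, at chr7:103827929-103828128 on the minus strand, and Alas2 at chrX:150547217-150547416 on the plus strand.
Hba-a1: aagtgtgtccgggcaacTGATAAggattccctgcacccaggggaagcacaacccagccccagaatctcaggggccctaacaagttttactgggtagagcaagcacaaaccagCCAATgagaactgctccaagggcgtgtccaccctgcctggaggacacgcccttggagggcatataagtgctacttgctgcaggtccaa
Hbb-bs: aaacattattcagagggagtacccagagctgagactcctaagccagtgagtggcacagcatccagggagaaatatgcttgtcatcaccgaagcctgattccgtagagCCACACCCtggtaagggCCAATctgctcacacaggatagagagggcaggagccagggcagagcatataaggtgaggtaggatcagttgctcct
Alas2: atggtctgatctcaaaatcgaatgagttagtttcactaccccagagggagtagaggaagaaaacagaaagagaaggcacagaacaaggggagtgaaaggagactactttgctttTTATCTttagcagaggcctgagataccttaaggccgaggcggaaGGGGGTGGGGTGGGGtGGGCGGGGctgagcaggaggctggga
The motifs searched on both strands over 250 bases were AGATAA and TGATAA, the forms bound by GATA factors, CCNCNCCC, bound by erythroid Krüppel-like factors, and TATAAA and CCAAT. The Hba-a1 promoter held TGATAA 183 to 178 bases before the start and CCAAT at 88 to 84. The Hbb-bs promoter held CCNCNCCC at 93 to 86 bases, CCAAT at 76 to 72 and, upstream of the printed stretch, AGATAA at 210 to 205. In the Alas2 promoter AGATAA was found on the opposite strand at 86 to 81 bases before the start, followed by 4 matches to CCNCNCCC between 42 and 19 bases, of which 3 overlapped one another; a TATAAA match on the opposite strand lay upstream of the printed stretch. Among the 2 regulators, Klf1 held TGATAA and CCAAT, and Gata1 held 3 matches to CCNCNCCC. Over the 32851 promoters of the same length, 9.99% held AGATAA, 7.94% TGATAA, 45.9% CCNCNCCC, 12.4% TATAAA and 33.8% CCAAT, so these matches describe the sequences and mark no proven site.

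Among the globins, which bind oxygen in the red cell, the probe set of Hba-a1 alone (94781_at) had signals of 56862 and 71216 in Dil, 57512 and 56161 in Dex, 59653 and 57776 in RA, and 62204 and 58494 in RA-Dex. Replicate b of Dil was the highest array and the other 7 lay close together, so most groups overlapped, although both RA arrays and both RA-Dex arrays were above both Dex arrays. The averaged dexamethasone effect, Dex and RA-Dex against Dil and RA, was a log2 fold change of -0.06 ± 0.085 (SE, 4 arrays against 4), with a 95% confidence interval from -0.25 to 0.13. The averaged retinoic acid effect, RA and RA-Dex against Dil and Dex, was -0.02 ± 0.085, with an interval from -0.20 to 0.17.

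The probe set shared by Hba-a2 and Hba-a1 (162457_f_at) gave 17223 and 17155 in Dil, 17327 and 16950 in Dex, 15414 and 15334 in RA, and 15752 and 14450 in RA-Dex. All 4 arrays of retinoic acid lay below all 4 arrays of oil here, which was not so for the Hba-a1 probe set. The averaged retinoic acid effect on the shared probe set was -0.17 ± 0.080 on the log2 scale, a 0.887-fold level. Its adjusted p by limma was 0.788, and its interval ran from -0.35 to 0.003. That interval overlapped the one of the Hba-a1 probe set, and the difference between the 2 probe sets was not tested.

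Adult beta-globin is reported by a probe set shared by Hbb-bt, Hbb-bs, Hbb-b2 and Hbb-b1 (101869_s_at), with signals of 52441 and 70439 in Dil, 59721 and 56077 in Dex, 51920 and 48862 in RA, and 57853 and 52396 in RA-Dex. Both RA arrays were below every array of Dil and Dex, and the RA-Dex arrays overlapped Dex and Dil. The averaged retinoic acid effect was -0.17 ± 0.098, with an adjusted p of 0.843. The contrast of RA against Dil was -0.27 ± 0.139, and it rested on which Dil array was used, being -0.48 without Dil replicate a and -0.06 without Dil replicate b. Sftpc, a gene of the lung epithelium, was likewise higher on Dil replicate b (84336) than on Dil replicate a (61592), and the part of that array in the globin values was not tested. A second probe set with the same 4 symbols (160560_at) read between 6.02 and 65.7, so the levels of the 2 beta-globin probe sets disagreed. That second probe set was at the floor of 85.3, the value to which lower signals were set, on all 8 arrays. A probe set annotated to Hbb-b2 alone (103534_at) had 13523 and 14203 in Dil, 15156 and 14446 in Dex, 12392 and 11939 in RA, and 14142 and 13599 in RA-Dex, with an averaged retinoic acid effect of -0.14 ± 0.081 and an adjusted p of 0.844.

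Globins of the embryonic yolk sac red cell were low, as signal for Hba-x and Hbb-bh1 did not exceed 230 and 199. The better of the Hbb-y probe sets (97180_f_at) passed the filter with 246 and 413 in Dil, 91.6 and 287 in Dex, 316 and 431 in RA, and 57.8 and 254 in RA-Dex. Its averaged dexamethasone effect of -1.15 ± 0.448 did not pass (adjusted p = 0.164), and the replicates of Dex and of RA-Dex lay far apart.

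**Figure D1:**
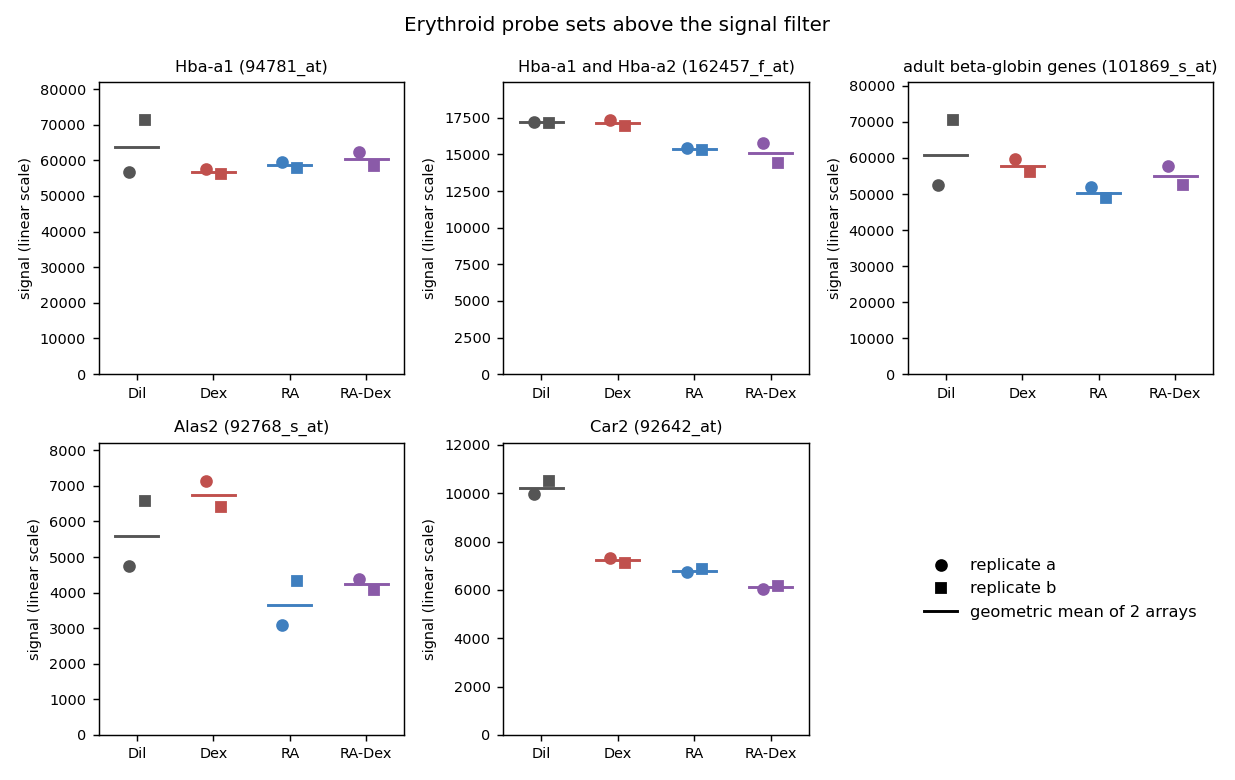
Signal on a linear scale (y axis) of the 5 erythroid probe sets above the filter, by group (x axis); circles are replicate a, squares replicate b, and bars the geometric mean of 2 arrays. The Alas2, Car2 and shared alpha-globin panels show all RA and RA-Dex arrays below all Dil and Dex arrays, while Hba-a1 lies between 56161 and 71216 with no such separation.

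Alas2 encodes the erythroid form of the first and rate-limiting enzyme of heme synthesis. Its signal was 4754 and 6576 in Dil, 7133 and 6399 in Dex, 3092 and 4317 in RA, and 4395 and 4086 in RA-Dex. Every array of retinoic acid lay below every array of oil, although the nearest, 4395 and 4754, were close. The group means, taken as geometric means of 2 arrays, were ordered Dex (6756), Dil (5591), RA-Dex (4237) and RA (3653), and the Dex arrays overlapped the Dil arrays as the RA arrays overlapped the RA-Dex arrays. The averaged retinoic acid effect was -0.64 ± 0.140 on the log2 scale (interval from -0.95 to -0.34), a 0.640-fold level, with an unadjusted p of 0.000812 and an adjusted p of 0.191 over 7309 probe sets, so it was not called. It was of like size without dexamethasone (RA against Dil, -0.61 ± 0.197) and with it (RA-Dex against Dex, -0.67 ± 0.197), and the interaction, the difference between these, was -0.06 with an interval from -0.68 to 0.56. The averaged dexamethasone effect on Alas2 was 0.24 ± 0.140 with an adjusted p of 0.364. Over the 8 fits that each left out 1 array, the averaged retinoic acid effect ranged from -0.76 to -0.52. Alas1, the form of the enzyme made in most tissues, had an averaged retinoic acid effect of -0.10 ± 0.110 with an adjusted p of 0.953, and the difference between Alas1 and Alas2 was not tested.

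Car2 encodes carbonic anhydrase 2, which interconverts carbon dioxide and bicarbonate. The signal was 9969 and 10503 in Dil, 7331 and 7123 in Dex, 6743 and 6846 in RA, and 6031 and 6181 in RA-Dex. The 4 groups did not overlap, and their order from high to low was Dil, Dex, RA and RA-Dex. Car2 fell by 20.3% in the averaged dexamethasone effect, a log2 fold change of -0.33 ± 0.0862 (interval from -0.52 to -0.14) with an adjusted p of 0.042. That call was lost in each of the 8 fits that left out 1 array (adjusted p from 0.0606 to 0.159, log2 fold change from -0.35 to -0.31), in the fit without an intensity trend (0.148) and in the fit with the replicate letter as a block (0.0888). Between RA-Dex and Dil, the arms that received both agents and neither, Car2 fell by 40.3%, a log2 fold change of -0.74 ± 0.122 (interval from -1.01 to -0.48) with an adjusted p of 0.00604. This call was lost without an intensity trend (0.0617), without RA-Dex replicate a (0.0646) and without RA-Dex replicate b (0.0657), and the log2 fold change stayed between -0.78 and -0.71 over the fits that left out 1 array.

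With a single agent the Car2 differences were larger than the averaged ones but did not pass. No contrast between groups next to each other in the order passed, and Dex and RA were not compared directly. Dex against Dil was -0.50 ± 0.122 with an adjusted p of 0.0535, and it passed under cyclic loess normalization (0.0442), with no filter (0.0277), with the stricter filter (0.0422), with the robust variance model (0.0495) and without RA replicate b (0.05 after rounding). RA against Dil was -0.59 ± 0.122 with an adjusted p of 0.178, and the averaged retinoic acid effect was -0.42 ± 0.0862 with an adjusted p of 0.165, which became 0.035 with no filter. Both comparisons use the same Dil arrays. After retinoic acid, the dexamethasone difference (RA-Dex against RA) was -0.15 ± 0.122 with an adjusted p of 0.612. The difference between the dexamethasone effects with and without retinoic acid was 0.35 ± 0.172, with an interval from -0.03 to 0.73 and an adjusted p of 0.892, so these effects were not shown to differ.

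Marker genes of other cell types also fell in the averaged dexamethasone effect. The summed signal of 14 leukocyte markers above the filter, of 19 on the array, was 26053 to 27637 in Dil, 18831 to 19796 in Dex, 28892 to 29076 in RA and 20097 to 20775 in RA-Dex, and 9 of the 14 fell in the averaged dexamethasone effect, where 3.57% of all tested probe sets fell. Ptprc, the common leukocyte antigen that defines white blood cells, was below the filter on each of its probe sets. The summed signal of 16 genes of heart and skeletal muscle, of 24 on the array, was 34245 to 35100 in Dil, 22110 to 22532 in Dex, 26374 to 27592 in RA and 27711 to 28077 in RA-Dex, and 2 of the 16 fell in the averaged dexamethasone effect. The leukocyte and muscle sums were both lowest in Dex, whereas the Car2 signal was lowest in RA-Dex. Leukocyte sums were not lower in RA than in Dil, and the Car2 signal and the muscle sums were. The part of these cells in the Car2 result was not tested.

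Of the other carbonic anhydrases, 7 of 12 listed genes were on the array and 3 passed the filter. Car8, a family member without catalytic activity, fell in the averaged dexamethasone effect, from 788 and 454 in Dil and 987 and 912 in RA to 267 and 277 in Dex and 453 and 478 in RA-Dex, a log2 fold change of -1.08 ± 0.194 with an adjusted p of 0.00605 that was 0.0783 with no filter. RA-Dex overlapped Dil for this gene. Car4, the membrane-bound form of the lung capillary, had an averaged dexamethasone effect of 0.22 ± 0.130 with an adjusted p of 0.379.

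**Figure D2:**
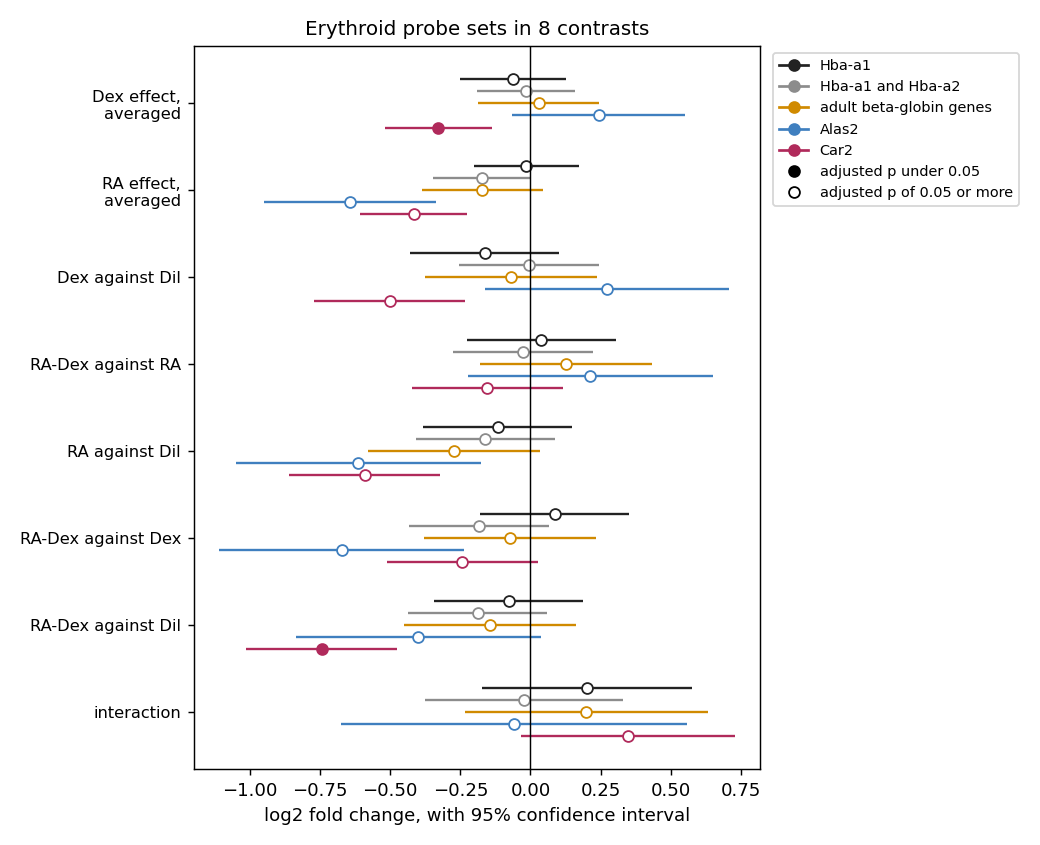
Log2 fold change (x axis) with its 95% confidence interval for the 5 erythroid probe sets above the filter in 8 contrasts (y axis); filled points have an adjusted p under 0.05. The 2 filled points are Car2 in the averaged dexamethasone effect (-0.33) and in RA-Dex against Dil (-0.74); the Alas2 intervals in the retinoic acid contrasts lie below 0 with open points.

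The 7 probe sets below the filter were not tested in the main analysis. Klf1, the Krüppel-like factor that drives beta-globin transcription, read 14.5 and 61.4 in Dil, 231 and 224 in Dex, 297 and 147 in RA, and 131 and 233 in RA-Dex. Both Dil arrays were at the floor and the 6 other arrays were above it. With no filter, limma gave Dex against Dil an adjusted p of 0.332 and RA against Dil one of 0.611. Neither passed, and both rest on the same 2 Dil arrays at the floor, so no fold change is given.

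Gata1, the founding GATA factor of the red cell program, had 2 probe sets. One (102654_at) read 85.0 and 93.2 in Dil, 179 and 110 in Dex, 260 and 31.4 in RA, and 96.9 and 156 in RA-Dex. The other (161456_f_at) read 193 and 34.5 in Dil, 190 and 81.2 in Dex, 163 and 49.7 in RA, and 302 and 208 in RA-Dex. On each probe set the replicates of at least 1 group differed by more than the group means did. On 161456_f_at both RA-Dex arrays lay above every other array, which was not so on 102654_at. With no filter, limma gave RA-Dex against Dil on 161456_f_at an adjusted p of 0.662. The 2 probe sets did not place the groups in the same order.

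Epb42, or protein 4.2, ties the anion exchanger to the membrane skeleton. One of its probe sets (102908_at) read 77.3 and 152 in Dil, 101 and 103 in Dex, 26.6 and 29.4 in RA, and 36.3 and 12.5 in RA-Dex. All 4 arrays of retinoic acid were at the floor, as was 1 of the 4 arrays of oil, so no fold change is given; with no filter the averaged retinoic acid effect had an adjusted p of 0.908. The other (161151_at) was above the floor on 1 array, RA replicate a, at 109. Car1, the carbonic anhydrase that is abundant in mature red cells of adults, read between 15.1 and 64.1 and was at the floor on all 8 arrays.

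**Figure D3:**
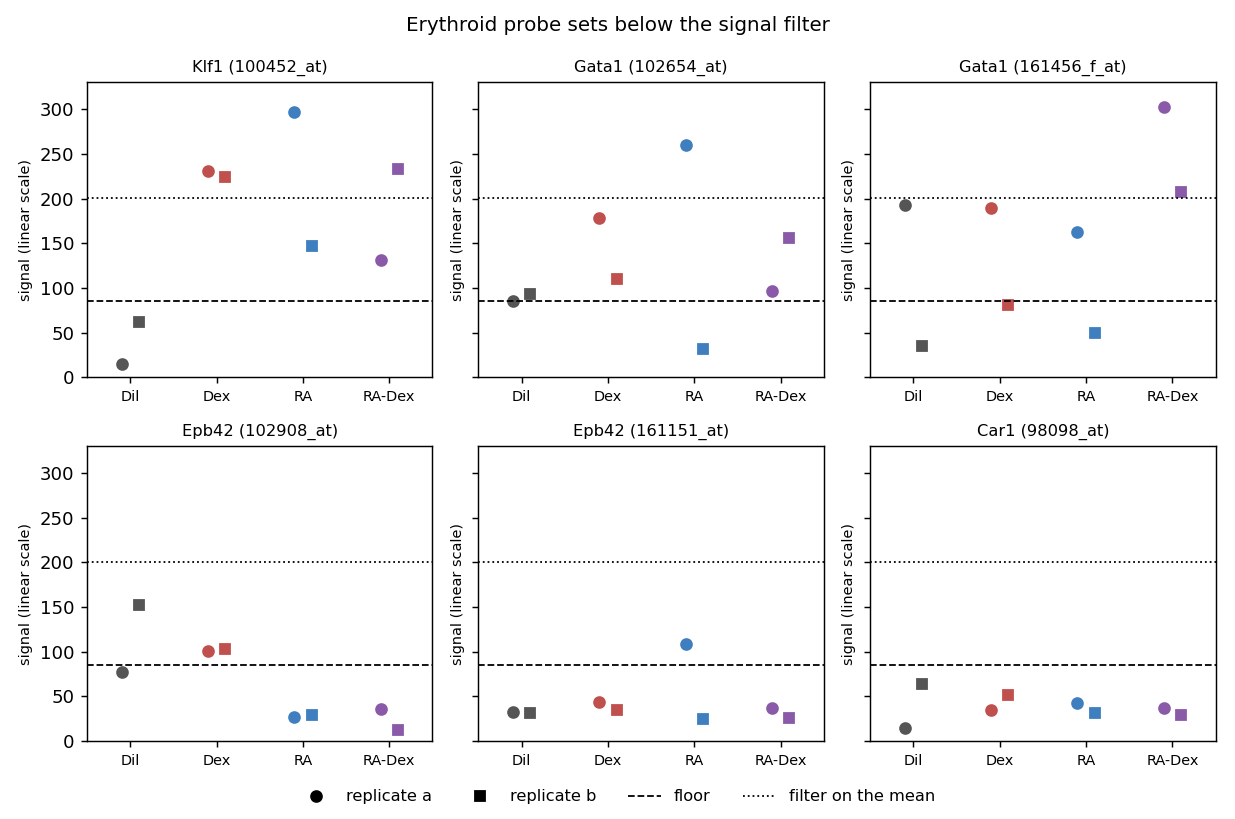
Signal on a linear scale (y axis) of 6 of the 7 erythroid probe sets below the filter, by group (x axis); circles are replicate a, squares replicate b, the dashed line is the floor of 85.3 and the dotted line the filter of 200.8, which applies to the mean over arrays. Klf1 lies below the floor on both Dil arrays only, and Epb42 (102908_at) on all 4 RA and RA-Dex arrays and 1 Dil array.

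Across contrasts, the members' counts were read against those of all 7309 tested probe sets. In the averaged dexamethasone effect 1 of 5 member probe sets fell (Car2) and none rose; of all tested 3.57% fell and 4.26% rose, 7.83% together. It was also the 1 member with an unadjusted p under 0.05, which 21.3% of all had. In RA-Dex against Dil 1 of 5 fell, again Car2, where 1.44% of all fell and 4.01% changed; 1 of 5 had an unadjusted p under 0.05, against 16.2% of all, and 3 of 5 lay below Dil with no overlap, against 27.1%.

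In the averaged retinoic acid effect limma called 0 of 5, where 0.15% of all tested were called and 0.0958% fell. The 2 members with an unadjusted p under 0.05 were Alas2 and Car2, and 6.29% of all had such a p. In that contrast 3 of 5, Alas2, Car2 and the shared alpha-globin probe set, lay below with no overlap between the arms, as did 1.48% of all tested. In RA against Dil limma called 0 of 5, where 0.0274% of all were called; 2 had an unadjusted p under 0.05, against 7.99% of all, and 4 lay below with no overlap, against 15.9%. RA-Dex against Dex had 0 calls by limma, where 0.0958% of all were called, and 1 unadjusted p under 0.05 (Alas2), against 4.13%. There 3 of 5 lay below and 1 above with no overlap, against 18.5% and 16.3% of all.

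Dex against Dil had 0 calls by limma, where 3.23% of all were called, 1 unadjusted p under 0.05 (Car2), against 14.9%, and 1 member below with no overlap, against 24.6%. RA-Dex against RA had 0 calls and 0 unadjusted p under 0.05 by limma, where 3.5% and 15.8% of all had them; 1 member lay below (Car2) and 1 above (the shared beta-globin probe set), against 26.3% and 18.5%. The interaction had 0 calls and 0 unadjusted p under 0.05 by limma, where all tested had 0.0137% and 5.6%. The 5 probe sets are not 5 independent genes, since 3 of them report adult globin.

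Genes with a role in red cells were examined more widely in the retinoic acid contrast, averaged over the day 4 treatment. They were taken in lists by role, with 1 probe set per gene. The lists were not limited to genes made by red cells alone, and the cells behind each signal were not tested. Of 15 tested red cell enzymes and late maturation genes, 1 fell, none rose and 12 had a negative log2 fold change, with a median of -0.26 beside a median of 0.00 over all tested probe sets; 4 had an unadjusted p under 0.05. Of all tested probe sets 0.0958% fell in this contrast, 3654 of 7309 had a negative log2 fold change and 6.29% had such a p. The gene that fell was Tent5c, a poly(A) polymerase of late erythroid and plasma cells, with 2309 and 2064 in Dil, 3025 and 3635 in Dex, 1443 and 1112 in RA, and 1877 and 1837 in RA-Dex. Its log2 fold change was -0.81 ± 0.128 with an adjusted p of 0.0498, and the call was lost under 10 of 16 alternatives (adjusted p up to 0.289). Those included every fit that left out 1 array except that without RA replicate a.

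Bpgm makes 2,3-bisphosphoglycerate, the regulator of oxygen release from hemoglobin. Its signal was 4109 and 3840 in Dil, 4307 and 3866 in Dex, 1601 and 2279 in RA, and 3086 and 2659 in RA-Dex. All arrays of retinoic acid were below all arrays of oil, and the RA arrays were below the RA-Dex arrays. The averaged effect was -0.78 ± 0.132 with an adjusted p of 0.0656, and the interaction was 0.55 ± 0.263 with an adjusted p of 0.892. Prdx2, the main peroxiredoxin of red cells, had averaged effects of -0.35 ± 0.119 (100331_g_at, adjusted p = 0.578 by limma) and -0.00 ± 0.129 (99608_at). The difference between its probe sets was not tested. Ypel3, listed with the late genes, had the opposite sign at 0.27 ± 0.131 with an adjusted p of 0.788.

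Of 9 tested genes of the red cell membrane and skeleton, 0 were called by limma, 1 had an unadjusted p under 0.05 and 8 were negative, with a median of -0.14. That gene was Slc4a1, the anion exchanger band 3 to which Epb42 binds, with 1118 and 1068 in Dil, 925 and 1111 in Dex, 706 and 406 in RA, and 925 and 938 in RA-Dex. Both RA arrays were below the 6 others, while RA-Dex overlapped Dex. RA against Dil was -1.03 ± 0.253 with an adjusted p of 0.302, and RA-Dex against Dex was -0.12 ± 0.253. The interaction of 0.91 ± 0.358 did not pass (adjusted p = 0.858). Dmtn of the same list had a larger difference of RA against Dil, -1.30 ± 0.340, with an adjusted p of 0.316 by limma. Its RA-Dex against Dex had the opposite sign at 0.44, and its interaction of 1.74 ± 0.481 did not pass (adjusted p = 0.763). Aqp1, a water channel of red cells and of lung endothelium, had an averaged effect of -0.14 ± 0.122 with an adjusted p of 0.941.

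Among the genes of heme synthesis and mitochondrial iron, limma called 0 of 10 in the averaged retinoic acid effect, 0 had an unadjusted p under 0.05 and the median was -0.09. Among erythroid transcription factors and cofactors 0 of 15 were called, 1 had an unadjusted p under 0.05 (Bach1, a heme-regulated repressor, at 0.67 ± 0.176, adjusted p = 0.339) and the median was -0.05. Among genes of erythropoietin signalling and iron uptake 0 of 10 were called, 0 had an unadjusted p under 0.05 and the median was 0.05. Fth1, the ferritin heavy chain and the gene of this list named for its high signal, was at 0.15 ± 0.0789 with an adjusted p of 0.807. Among 14 leukocyte markers 0 were called, 3 had an unadjusted p under 0.05 and the median was 0.28. Of the 3 platelet genes tested none was called, 1 had an unadjusted p under 0.05, and Pf4, the defining platelet chemokine, was below the filter.

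**Figure D4:**
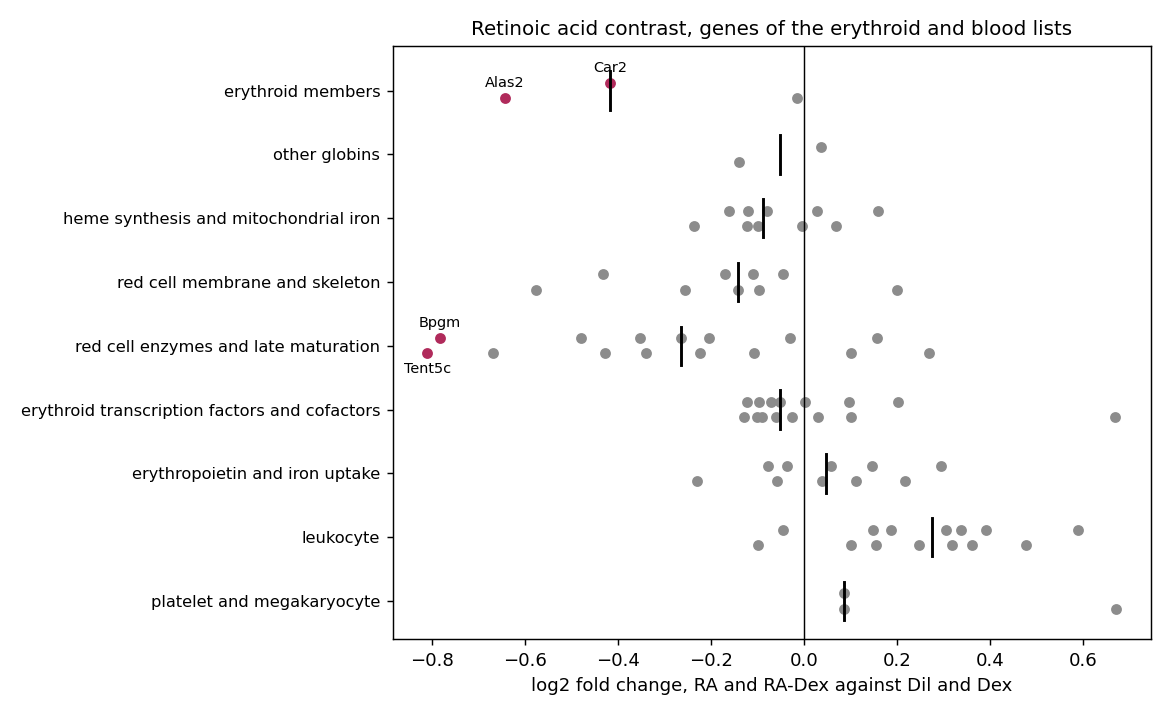
Log2 fold change (x axis) of RA and RA-Dex against Dil and Dex for each tested gene of 9 lists (y axis), 1 point per gene, with a black bar at the list's median; named red points are genes for which all RA and RA-Dex arrays lay below all Dil and Dex arrays. These are Alas2, Car2, Bpgm and Tent5c; shared globin probe sets are not in the lists.

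The averaged dexamethasone effect was examined over the same lists. Among 15 tested transcription factors and cofactors 4 rose and 1 fell, where 4.26% of all tested probe sets rose and 3.57% fell, with a list median of -0.11 beside -0.03 over all tested probe sets. Foxo3, a forkhead factor that acts in late erythroid cells and in many other cells, rose from 2128 and 2149 in Dil to 5252 and 4898 in Dex, and from 1334 and 2050 in RA to 5421 and 5644 in RA-Dex. Its log2 fold change was 1.49 ± 0.136 with an adjusted p of 6.78e-05, and the call was kept under all 16 alternatives. Gata2, the GATA factor of progenitors and of endothelium, rose by 0.63 ± 0.114 (adjusted p = 0.00614), also kept under all 16. Mafk, a small Maf partner of NFE2, rose by 0.60 ± 0.125 (adjusted p = 0.0137), a call lost without the first Dex array (replicate a, 0.066) and without either array of RA-Dex (0.0531 and 0.057). Bach1 rose by 0.65 ± 0.176 (adjusted p = 0.0485), a call lost under 8 of 16 alternatives (adjusted p up to 0.236), among them the fits without Dil replicate b, either Dex replicate, RA replicate b or RA-Dex replicate b.

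Lmo2, the bridging protein of the GATA1 and TAL1 complex, fell on both of its probe sets, from 1402 and 1533 in Dil to 952 and 893 in Dex and from 1652 and 1545 in RA to 983 and 730 in RA-Dex on the one with the higher signal (96810_at). The log2 fold change was -0.79 ± 0.136 with an adjusted p of 0.00472, kept under all 16 alternatives; on the other (93666_at) it was -0.66 ± 0.162 with an adjusted p of 0.0303, lost under 8 of 16. Lyl1, a relative of TAL1, fell on one probe set (100467_at, -1.39 ± 0.291, adjusted p = 0.014, lost with no filter, without RA replicate b and without RA-Dex replicate b) and did not pass on the one with the higher signal (100468_g_at). These factors are also made by endothelial and white blood cells, and the leukocyte sums given above were lower in both dexamethasone groups. The summed signal of 12 endothelial genes was 68653 to 74263 in Dil, 58933 to 62848 in Dex, 60360 to 72328 in RA and 62001 to 73812 in RA-Dex, so it was lower in Dex than in Dil and overlapped between RA-Dex and RA, and 1 of the 12 fell. The part of those cells in these values was not tested.

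Of 10 tested heme and mitochondrial iron genes 1 rose in the same contrast and none fell. This was Abcg2, a porphyrin and drug exporter, with 873 and 495 in Dil, 1236 and 1098 in Dex, 533 and 588 in RA, and 1070 and 1251 in RA-Dex, a log2 fold change of 0.94 ± 0.184 (adjusted p = 0.0098) that did not pass with no filter (0.115) or without RA-Dex replicate b (0.0573). Tent5c rose by 0.58 ± 0.128 (adjusted p = 0.0187), the 1 call among 15 red cell enzymes and late genes, and it did not pass under 6 of 16 alternatives, among them the fits without Dil replicate b, Dex replicate b or either RA-Dex replicate. Limma called 0 of 9 membrane genes, with 0 at an unadjusted p under 0.05, and 0 of 10 genes of erythropoietin signalling and iron uptake, with 2 at an unadjusted p under 0.05, a share close to the 21.3% of all tested probe sets.

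Some transcripts correlated across arrays with a mean profile of the members. The profile was the mean, over the 4 member probe sets above the filter without Car2, of log2 signal minus its mean over the 8 arrays. It ran from -0.21 in RA replicate a to 0.27 in Dil replicate b. The values were not scaled by their spread, so Alas2, with signals from 3092 to 7133, weighed more in the profile than any globin probe set. Among 6613 candidate probe sets with 1 symbol, the 10 with the highest Pearson correlation over the 8 arrays were Mdk (0.952), Ebf3 (0.938), Crybb2 (0.929), Ccs (0.907), Ghitm (0.901), Nsdhl (0.901), Pigs (0.899), Incenp (0.896), Htra1 (0.892) and Baz1b (0.891). Mdk, the growth factor midkine, read 7533 and 9344 in Dil, 8263 and 7073 in Dex, 5144 and 5942 in RA, and 6951 and 5701 in RA-Dex. Htra1, a secreted serine protease, read 5412 and 5864 in Dil, 5307 and 5307 in Dex, 3720 and 3749 in RA, and 4368 and 4051 in RA-Dex. No gene of the erythroid lists was among the 10. Among the members themselves the correlation was 0.77 between Alas2 and the shared alpha-globin probe set, 0.68 between Alas2 and the shared beta-globin probe set, and 0.17 between Alas2 and Hba-a1. It was 0.79 between Hba-a1 and the shared beta-globin probe set and 0.13 between the 2 alpha-globin probe sets. Car2 had correlations from 0.43 to 0.72 with the 4 others. The arrays share their scaling and the 4 groups, and with 8 arrays these values only describe the order of the arrays.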

How the data were processed

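The 8 arrays, 2 in each of 4 groups, measured total RNA of mouse lung. The authors' deposited values are intensity values on a linear scale, 1 per probe set; the sources used here do not name the software or scaling. Their 2% trimmed means were 800.4 on all arrays and medians ranged from 316 to 342, so no further normalization was applied. Depth does not apply to arrays; their number limits the precision. Of 12488 probe sets, 66 controls were left out. Of the 12422 others, 10833 have 1 symbol in the platform annotation, 396 several and 1193 none. Signals below the pooled 25th percentile (85.3) were set to it, and values were taken to log2. The filter kept the 7309 probe sets with a mean above the pooled 40th percentile (200.8). limma 3.58.1 in R 4.3.3 fitted 1 mean per group over all 8 arrays, with eBayes and an intensity trend (4 residual and 6.69 prior degrees of freedom), two-sided, with Benjamini-Hochberg adjustment over the 7309; a call is an adjusted p under 0.05. Values after ± are standard errors. The fit was tested on simulated data. Alternatives were: a replicate block (the letter as covariate); leaving out each array, or both Dil arrays; robust variances; no trend; a pseudocount of 50; a filter at the 60th percentile (508.5) or none; cyclic loess or quantile normalization. Where a gene has several probe sets, lists count the one with the highest mean signal. Named were all member probe sets, list genes that passed in a contrast and up to 4 others per list by signal. The 10 probe sets most like the member profile were also named. Ypel3, Slc4a1, Dmtn, Ptprc, Pf4 and the lung markers, and genes given for an unadjusted p, were singled out after their values were seen. The members and lists were chosen with earlier results of these data known.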

Additional observations from a re-analysis of the deposited data

Results flagged for a closer look

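Foxo3 had retinoic acid differences of opposite sign without and with dexamethasone, and in both cases the arrays did not overlap. RA lay below Dil by a log2 fold change of -0.37 ± 0.193, and RA-Dex lay above Dex by 0.12 ± 0.193 (2 arrays against 2). The difference between these, 0.50 ± 0.273, did not pass limma's test over all probe sets (adjusted p = 0.898), so the differences were not shown to be unlike. No group of 2 arrays allows a test of a single array that stands apart.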

How the results depend on the processing

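Alternatives were compared for the members and for called genes of the erythroid, carbonic anhydrase and platelet lists. Among these, no log2 fold change that passed the test changed sign under any alternative run. The calls of leukocyte, endothelial and muscle genes were not checked in this way. In the averaged dexamethasone effect Car2 was the only member called, and the count was 0 with no intensity trend and 0 with the replicate block. That call did not hold when single arrays were left out. The count for RA-Dex against Dil was 0 with no intensity trend and 0 to 1 over the fits without 1 array; for Dex against Dil it became 1 with cyclic loess, with no filter, with the stricter filter and with the robust variance model, and ranged from 0 to 1 without 1 array; for the averaged retinoic acid effect it became 1 with no filter. Each of these counts concerns Car2. Whether the replicate letters pair the arrays was not established. Deviations of same-letter arrays correlated between -0.221 and 0.136 over the 6 pairs of groups. The correlation was positive within the oil groups (Dil and Dex, 0.136) and within the retinoic acid groups (RA and RA-Dex, 0.103). It was negative for every pair of an oil group with a retinoic acid group, from -0.221 to -0.098. Whether arrays of the same letter shared a set or batch within these arms was not tested. The replicate block changed no other member call.

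Mean log2 levels moved by more than their replicate SD for Car2 in RA (12.77 with quantile and 12.75 with cyclic loess normalization, from 12.73), Hba-a1 in Dex (15.87 with both, from 15.79), Hba-a1 in RA (15.91 with cyclic loess), the shared alpha-globin probe set in Dex (14.11 with cyclic loess), Dil (14.06 with quantile, 14.10 with cyclic loess, 14.07 with the pseudocount) and RA (13.95 with cyclic loess), and the shared beta-globin probe set in Dex (15.90) and RA (15.69) with cyclic loess. Of the member log2 fold changes recomputed under alternatives, 605 kept their direction and their side of the threshold, 26 changed sign with no call in either fit, 6 gained and 13 lost a call. With 2 arrays a group, the range of 1 group rests on 2 values, and for signals at the floor no order among arrays can be read.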
